A study of Rattus norvegicus with 5 samples.

Results

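The CXC and CX3C chemokines described here are 5 genes, Cxcl1, Cxcl2, Cxcl6, Cx3cl1 and Cxcl10, read by 7 probe sets of a rat array that names 4736 genes. Cxcl2, Cxcl6, Cxcl10 and Cx3cl1 were found through the platform annotation, and Cxcl1 through the probe set D11445exon#1-4_s_at, for which that annotation gives no single gene name. The genes were chosen from their values on these same arrays, including the differences between exposed and control lungs, so every value is a description and none is tested. Lung RNA was measured on 5 one-colour arrays, each hybridised with 1 pool. The early, intermediate and late arrays carried lung RNA of rats given EHC-93, an urban outdoor dust, by instillation into the trachea, pooled over 2, 4 and 6 h, over 15, 18 and 21 h, and over 24, 32 and 40 h. The sham array carried RNA pooled over 2, 15 and 24 h after saline was instilled in the same way, and the untreated array RNA of 3 rats with no instillation. The sources used here do not give strain, sex, age or dose, or how many rats made up each instilled pool. With 1 array in each group no difference has a replicate check, an error or a p-value.

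Chemokines are small secreted proteins that steer leukocytes by binding receptors on them, and they are grouped by the spacing of their first cysteines. The CXC ligands Cxcl1, Cxcl2 and Cxcl6 carry an ELR motif before the cysteines and attract neutrophils through Cxcr2, whereas Cxcl10 lacks it, is induced by interferons and attracts activated T and NK cells through Cxcr3. Cx3cl1, or fractalkine, is made as a membrane-bound protein that tethers cells bearing Cx3cr1 and can be shed by the proteases Adam10 and Adam17. In lung these ligands are produced by epithelium, endothelium and macrophages, and the ELR-bearing ligands are known for transcription driven by NF-kB.

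The promoter windows of the 5 genes are shown because 4 of the genes were high on the same array and NF-kB sites are known in this family. Each window runs from 250 bases before to 50 after the annotated start and is given 5′ to 3′ on the gene's strand, from RefSeq on the assembly GRCr8. The windows lie at chr14:17479272-17479571 (minus strand), chr14:17467206-17467505 (minus strand), chr14:17596368-17596667 (minus strand), chr19:10242771-10243070 (minus strand) and chr14:15988816-15989115 (plus strand), in the order printed. Capitals mark matches, on either strand, to GGNNNTTCC, a loose form of the NF-kB motif.
Cxcl1: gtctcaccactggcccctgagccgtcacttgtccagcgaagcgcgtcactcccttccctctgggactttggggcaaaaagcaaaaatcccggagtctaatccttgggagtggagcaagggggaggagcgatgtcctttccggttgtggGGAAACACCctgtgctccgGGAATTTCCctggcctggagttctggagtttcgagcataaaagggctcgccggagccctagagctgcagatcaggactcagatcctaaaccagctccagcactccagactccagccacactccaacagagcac
Cxcl2: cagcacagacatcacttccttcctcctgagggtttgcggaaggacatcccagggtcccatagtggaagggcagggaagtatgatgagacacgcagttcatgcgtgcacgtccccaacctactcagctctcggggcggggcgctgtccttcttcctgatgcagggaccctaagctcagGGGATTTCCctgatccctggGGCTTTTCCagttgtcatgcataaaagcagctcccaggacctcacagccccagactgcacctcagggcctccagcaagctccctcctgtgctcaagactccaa
Cxcl6: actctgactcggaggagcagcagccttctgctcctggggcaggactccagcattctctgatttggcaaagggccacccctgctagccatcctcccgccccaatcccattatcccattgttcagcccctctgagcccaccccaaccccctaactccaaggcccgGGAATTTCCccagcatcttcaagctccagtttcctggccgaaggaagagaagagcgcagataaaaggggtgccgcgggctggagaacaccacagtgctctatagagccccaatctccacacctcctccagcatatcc
Cx3cl1: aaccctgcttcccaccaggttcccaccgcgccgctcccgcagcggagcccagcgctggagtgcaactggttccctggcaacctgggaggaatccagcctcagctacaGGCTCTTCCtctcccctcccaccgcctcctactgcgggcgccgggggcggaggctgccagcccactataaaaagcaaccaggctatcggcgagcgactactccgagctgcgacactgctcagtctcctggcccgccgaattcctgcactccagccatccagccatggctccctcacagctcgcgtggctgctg
Cxcl10: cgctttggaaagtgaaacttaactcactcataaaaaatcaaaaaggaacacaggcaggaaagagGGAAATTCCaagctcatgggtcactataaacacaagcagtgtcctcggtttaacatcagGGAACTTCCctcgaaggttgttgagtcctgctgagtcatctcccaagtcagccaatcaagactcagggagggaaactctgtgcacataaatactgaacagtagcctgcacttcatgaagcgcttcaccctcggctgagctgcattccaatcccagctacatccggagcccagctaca

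All 5 windows held at least 1 such match, as did 18.3% of the 33469 windows of the table and 20.35% of the 3268 windows of genes above the floor on these arrays. The windows of Cxcl1, Cxcl2 and Cxcl10 held 2 each, which 2.13% of all windows did with 2 or more. In Cxcl1, Cxcl2 and Cxcl6 all matches lay between -102 and -45, counted in bases from the start, and Cxcl1 and Cxcl6 shared the letters GGAATTTCC, beginning at -83 and -87. The match of Cx3cl1, GGCTCTTCC, began at -143, and those of Cxcl10, GGAAATTCC and GGAACTTCC, began at -186 and -127. Cxcl10 alone among the 5 had a match to TTTCNNTTT, an interferon response like motif found in 11.8% of all windows, on the opposite strand at -242 to -234, and alone had one to TGANTCA, an AP-1 like motif found in 7.33%. The box TATAAA was searched in these exact letters alone, so near forms in any window were not counted. Present in 14.2% of all windows, it was found in Cx3cl1 at -78 to -73 and in Cxcl10 at -162 to -157. These are matches of letters on both strands, not measured sites, and some motifs can overlap.

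Intensities were scaled to a common median per array, and values under the floor of 172.53, the 40th percentile of all scaled values, only bound a difference. Of the 8740 probe sets that are not platform controls, 6188 lay above the floor on at least 1 array, and all 7 chemokine probe sets were among them. A probe set is called higher or lower where it stood at least 2-fold apart from both the sham and the untreated array. On the early array 6 of the 7 chemokine probe sets, covering 4 genes, were called higher, against 3.17% of the 6188. On the intermediate array 1 was, against 0.824%, and on the late array 1, against 0.566%. None was called lower on any exposed array, where 0.452% (early), 0.339% (intermediate) and 0.953% (late) of the 6188 were. In whole lung RNA more cells of a type and more RNA per cell cannot be told apart. Since the genes were chosen on these differences, nothing is read from the counts. Over all probe sets, 51 were higher and 21 lower on the intermediate array and 35 and 59 on the late array, but with values as deposited the split was 30 to 40 and 28 to 91. Scaling to the 75th percentile gave 37 to 35 on the intermediate array and quantile normalization 37 to 30. Scaling by the median raised the exposed arrays by 0.12, 0.20 and 0.14 on the log2 scale relative to sham, in time order.

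**Figure D1:**
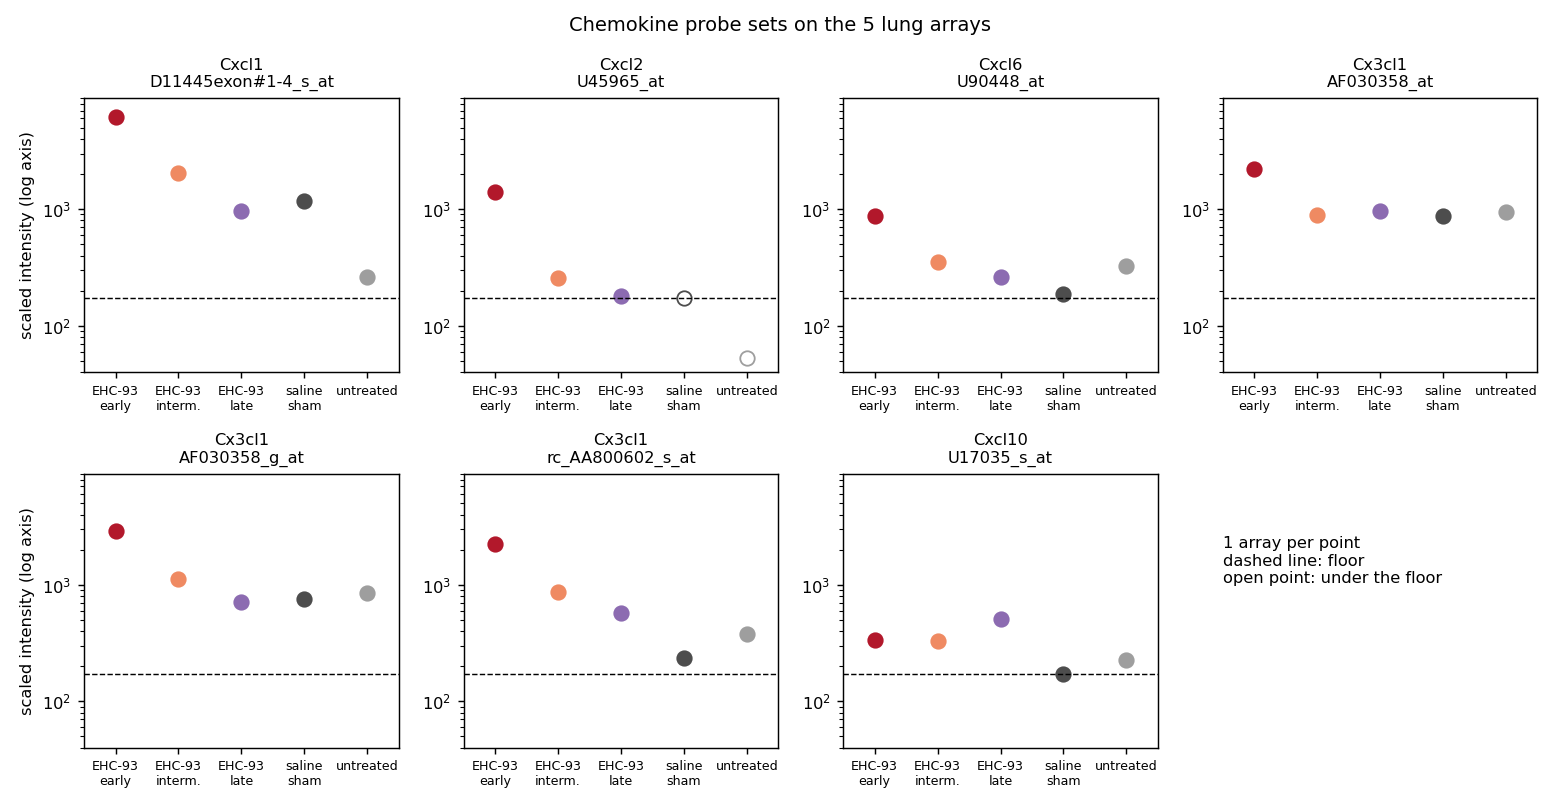
Scaled intensity (log axis) of the 7 chemokine probe sets on the 5 arrays, 1 point per array, with open points under the floor of 172.53 (dashed). Cxcl1, Cxcl2, Cxcl6 and all 3 Cx3cl1 probe sets had their highest point on the early EHC-93 array, and Cxcl10 had its highest, 510, on the late one.

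Cxcl1, a neutrophil attractant known in the rat as CINC-1, read 6119 (early), 2029 (intermediate) and 957 (late) after EHC-93, against 1165 (sham) and 262 (untreated). The early array stood apart, and the late array lay between the control arrays. Early was 5.25-fold above sham, 23.4-fold above untreated and 3.02-fold above intermediate. Intermediate was 1.74-fold above sham but 7.75-fold above untreated, and late was 3.66-fold above untreated but -0.28 on the log2 scale from sham. In the order of levels, intermediate, sham and late were each under 2-fold from the next, while early stood above and untreated below them by more.

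Cxcl1 was also the 1 chemokine probe set of the 7 that stood at least 2-fold above the untreated array on the sham array, at 4.45-fold, where 1.66% of the 6188 probe sets did. Cxcl2, at 171 (sham) and 53.2 (untreated), was under the floor on both arrays and so could not be called here. With the untreated array as the only control Cxcl1 was therefore past 2-fold at every exposed time, and with the sham array as the only control on the early array alone. The sham pool included RNA from 2 h after instillation, and its 3 times were not the set of any 1 exposed pool. In any difference from the sham array, for every chemokine, dust and time after instillation therefore cannot be told apart.

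Cxcl2, also called MIP-2, read 1416 (early), 256 (intermediate) and 180 (late) after EHC-93, against 171 (sham) and 53.2 (untreated), both under the floor. The early array stood far above the floor and the late array lay just above it. Early was at least 8.21-fold above both controls. It was 5.53-fold above the intermediate and 7.88-fold above the late array. The intermediate, late and sham arrays were each under 2-fold from the next. With both controls under the floor the size of the Cxcl2 difference is set by the floor, and a floor at the 60th percentile gave 1.63 in place of 3.04 on the log2 scale.

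Cxcl6, which the RefSeq table also lists under the synonym Cxcl5, read 877 (early), 354 (intermediate) and 264 (late) after EHC-93, against 189 (sham) and 327 (untreated). The early array stood apart, and the other 4 arrays were each under 2-fold from the next. Early was 4.65-fold above sham and 2.68-fold above untreated. The untreated array, and not the sham array, was the higher control, the opposite of Cxcl1, although 1.74-fold apart is under the threshold. A floor at the 60th percentile, above both control levels, ended the early call of Cxcl6, at a log2 difference of 0.94.

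The genes of the ELR-bearing ligands are close neighbours. In the GRCr8 annotation the protein-coding order is Cxcl2, Cxcl1, an unnamed locus, Cxcl3, the platelet chemokine Pf4, Ppbp and Cxcl6. Inside this cluster the early array was high for Cxcl2, Cxcl1 and Cxcl6, whereas Cxcl3, a further neutrophil attractant, read 6109 (early), 4827 (intermediate) and 5241 (late) after EHC-93, against 3779 (sham) and 3704 (untreated). The early array was 1.62-fold above its sham level and 1.65-fold above its untreated level, short of the threshold. Pf4 read 1794 (early), 1766 (intermediate) and 2167 (late), against 1816 (sham) and 1447 (untreated), under 2-fold in every comparison. Cxcl1, Cxcl2 and Cxcl3 are close paralogs, and the name of the Cxcl1 probe set ends in _s_at, a suffix used for probes that can match several transcripts. The Cx3cl1 probe set rc_AA800602_s_at and the Cxcl10 probe set U17035_s_at carry the same suffix. Probe sequences were not used here, so signal shared with other transcripts was not tested for any of them.

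Cx3cl1 was read by 3 probe sets, and all were called higher on the early array. AF030358_g_at read 2900 (early), 1116 (intermediate) and 707 (late) after EHC-93, against 759 (sham) and 843 (untreated). It was 3.82-fold and 3.44-fold higher on the early array, and the late array was the lowest of the 5. AF030358_at read 2221 (early), 894 (intermediate) and 959 (late), against 870 (sham) and 948 (untreated), so that the 4 arrays other than early were within 1.06-fold of the next. Its early value was 2.55-fold above sham and 2.34-fold above untreated.

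The probe set rc_AA800602_s_at of Cx3cl1 had lower control levels than the other 2, and it is the 1 of the 3 whose name carries the suffix _s_at. It read 2246 (early), 874 (intermediate) and 577 (late) after EHC-93, against 235 (sham) and 377 (untreated). Every exposed array was above both controls, by 9.56-fold and 5.96-fold (early), 3.72-fold and 2.32-fold (intermediate), and 2.45-fold and 1.53-fold (late) from sham and untreated. It was the 1 chemokine probe set called on the intermediate array, a call that the other 2 Cx3cl1 probe sets did not share and that a floor at the 60th percentile ended (0.93 on the log2 scale). The log2 difference from the mean of both controls ranged over the 3 probe sets from 1.29 to 2.92 on the early, from -0.02 to 1.55 on the intermediate and from -0.18 to 0.95 on the late array. Hence the probe sets had the early difference from the controls in common, but not the later ones. From early to intermediate they fell alike, by 2.48-fold (AF030358_at), 2.60-fold (AF030358_g_at) and 2.57-fold (rc_AA800602_s_at). From intermediate to late AF030358_g_at and rc_AA800602_s_at fell by 1.578-fold and 1.515-fold, and AF030358_at rose by 1.073-fold.

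**Figure D2:**
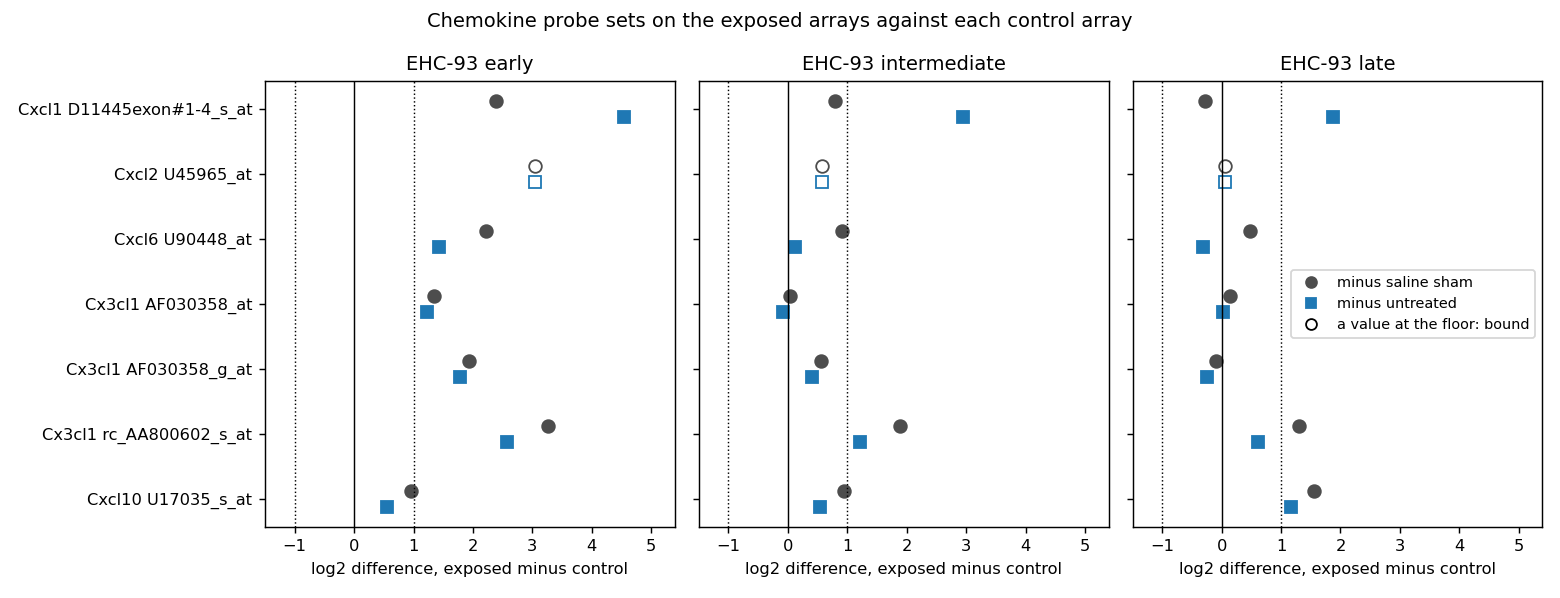
Log2 difference of each exposed array from the sham array (circles) and from the untreated array (squares), 1 row per probe set, with 2-fold dotted and open symbols where a value at the floor makes the difference a bound. On the early array 6 of 7 rows lie past 2-fold from both controls, and on the late array only Cxcl10 does.

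Cxcl10, the interferon-inducible ligand of Cxcr3, had another course. It read 334 (early), 332 (intermediate) and 510 (late) after EHC-93, against 173 (sham) and 227 (untreated). The exposed arrays were all above both controls, and the late array was highest. Late was 2.95-fold above sham and 2.25-fold above untreated. Early was 1.93-fold and 1.47-fold, and intermediate 1.92-fold and 1.46-fold, both short of the threshold. Each array was under 2-fold from the next in the order late, early, intermediate, untreated, sham, so that the fold rule separates no neighbours. The sham value lay just above the floor of 172.53, and a floor at the 60th percentile ended the late call, at 0.16 on the log2 scale.

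Set against the other exposed arrays, without the controls, 6 of the 7 probe sets were at least 2-fold higher on the early than on both later arrays, where 2.57% of the 6188 were, and Cxcl10 was not. The early array was above the intermediate array by 2.48-fold to 5.53-fold over those 6 and above the late array by 2.31-fold to 7.88-fold. Cxcl10 was -0.61 on the log2 scale from the late array at early times and -0.62 at intermediate times. At the threshold of 3-fold, 4 of the 7 probe sets were called on the early array (Cxcl1, Cxcl2, AF030358_g_at and rc_AA800602_s_at) and none on the later arrays. The share of the 6188 probe sets called at 3-fold was not computed, so nothing is read from that count.

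**Figure D3:**
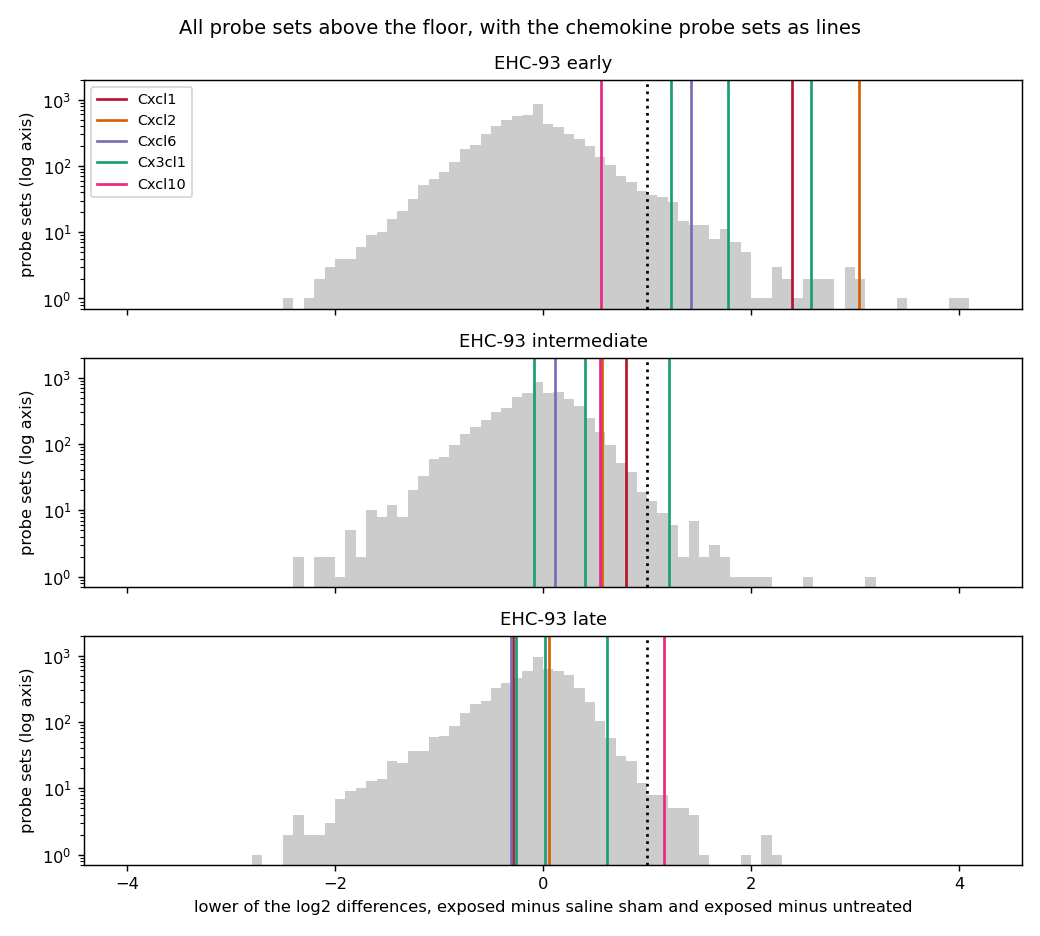
Histograms (count on a log axis) of the lower of the log2 differences from sham and from untreated for the 6188 probe sets above the floor, on each exposed array, with the 7 chemokine probe sets as coloured lines and 2-fold dotted. The lines of Cxcl2, Cxcl1, Cxcl6 and Cx3cl1 lie past 2-fold on the early array, and that of Cxcl10 alone lies past 2-fold on the late array.

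Related genes were counted through 1 probe set per gene, the one with the highest mean. Of the 3667 named genes above the floor, 2.54% were called higher and 0.3% lower on the early array, 0.873% and 0.218% on the intermediate array, and 0.6% and 1.04% on the late array. Of the 4 other CXC ligands measured, none was called on any exposed array. Beside Cxcl3 and Pf4 they were Cxcl13, which draws B cells, with 983 (early), 1696 (intermediate) and 1359 (late), against 1269 (sham) and 1436 (untreated), and Cxcl14, a ligand of epithelial tissues, at 16383 (early), 10360 (intermediate) and 12629 (late), against 13772 (sham) and 14154 (untreated). The median of the list was 0.19 on the log2 scale from the mean of both controls on the early array, where that of all named genes was -0.01.

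No receptor measured was called on any exposed array. Cxcr2 for the ELR-bearing ligands, Cx3cr1 for Cx3cl1 and the B cell receptor Cxcr5 lay under the floor on all 5 arrays, so no difference can be given for them. Cxcr1, a second receptor for ELR-bearing ligands, read 508 (early), 330 (intermediate) and 721 (late), against 1033 (sham) and 428 (untreated), and no exposed array was on one side of both controls by 2-fold. Cxcr4, which binds Cxcl12, read 1437 (early), 1174 (intermediate) and 1587 (late), against 1382 (sham) and 1412 (untreated). Ackr3, a scavenger receptor for Cxcl12, read 1472 (early), 911 (intermediate) and 715 (late), against 748 (sham) and 698 (untreated), with the early array 1.97-fold above sham and 2.11-fold above untreated, just short of the rule. The receptor list, 3 of 6 measured genes being above the floor, had no call and medians of 0.04, -0.25 and 0.12 in time order.

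Of 19 listed genes that induce or carry NF-kB signalling 8 were measured and 7 lay above the floor. Of these 4 were called higher on the early array, 1 on the intermediate and none on the late array, with none lower. Over the named genes above the floor 2.54%, 0.873% and 0.6% were called higher in time order. The list medians were 1.08, 0.35 and 0.13, against -0.01, 0.09 and 0.07 over all named genes. The cytokine Il1b read 4479 (early), 3451 (intermediate) and 2057 (late), against 1131 (sham) and 692 (untreated), and was the 1 gene of the list called at intermediate times. Another Il1b probe set, M98820_g_at, was called on the late array too, by 2.37-fold from sham and 2.32-fold from untreated. Il1a read 1122 (early), 506 (intermediate) and 533 (late), against 430 (sham) and 366 (untreated). Tnf read 363 on the early array, at least 2.11-fold above both controls, and lay under the floor on the other 4 arrays. Nfkbia, which encodes the inhibitor that NF-kB itself induces, read 7182 (early), 4503 (intermediate) and 3957 (late), against 3279 (sham) and 2552 (untreated). The part of these cytokines in the chemokine differences was not tested.

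Of 23 listed interferon axis genes 19 were measured and 17 lay above the floor, and none was called on any exposed array; the medians were -0.13, 0.20 and 0.11 in time order. Irf1, a transcription factor that interferon induces, read 4190 (early), 3862 (intermediate) and 3648 (late), against 3055 (sham) and 2827 (untreated), and the immunoproteasome subunit Psmb9 read 2454 (early), 3581 (intermediate) and 3808 (late), against 2754 (sham) and 3138 (untreated). Ifng and Ifnb1 lay under the floor on all arrays. A second probe set of Jak2, U13396_at, was called on the early array where the one standing for the gene was 2.00-fold and 2.17-fold higher and just missed the rule.

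Of the 3 proteases that can shed or process these ligands none was called. Adam17 read 683 (early), 228 (intermediate) and 333 (late), against 181 (sham) and 426 (untreated), with the early array 3.77-fold above sham and 1.60-fold above untreated. Ctss, a lysosomal cathepsin, read 5916 (early), 6302 (intermediate) and 7476 (late), against 7013 (sham) and 5383 (untreated). Of the 2 mRNA stability genes measured, Zfp36, whose product speeds the decay of chemokine and cytokine mRNAs, was called higher on the early array, at 9704 (early), 3224 (intermediate) and 4924 (late), against 4041 (sham) and 3432 (untreated).

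**Figure D4:**
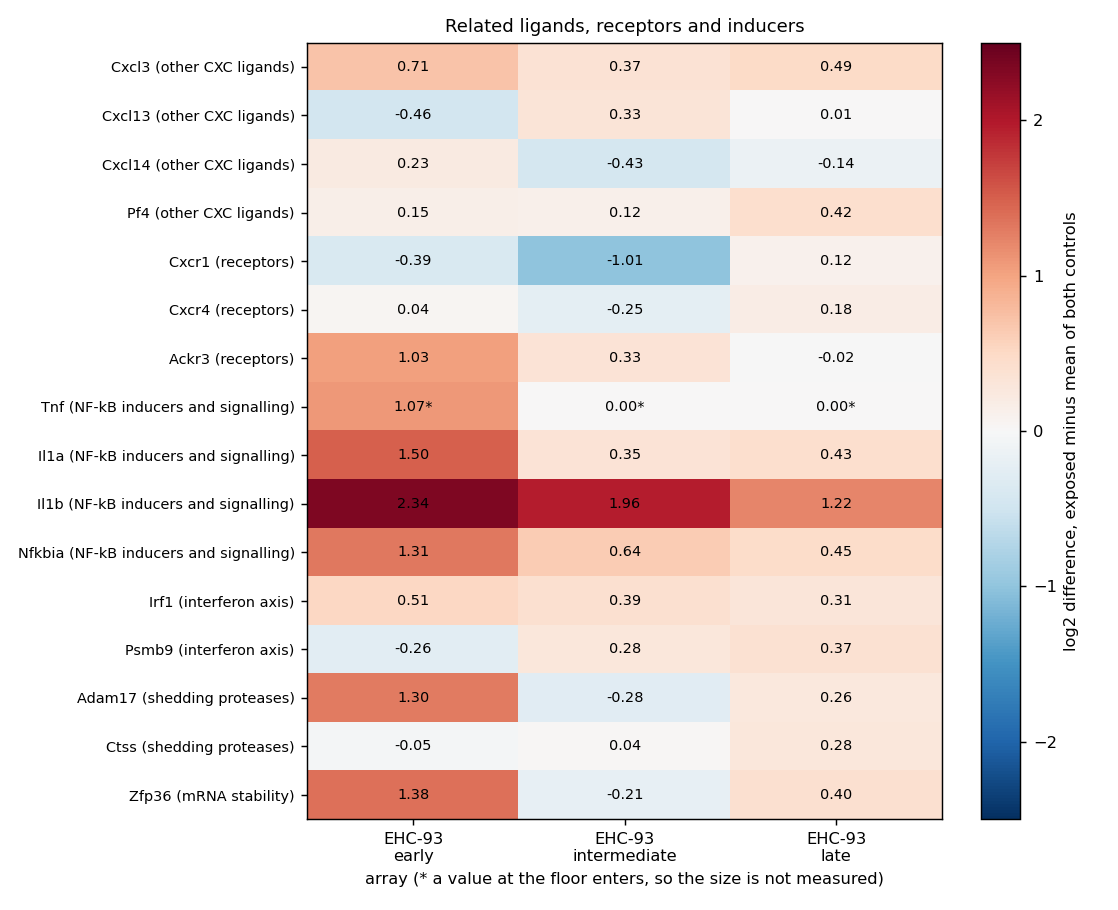
Log2 difference of each exposed array from the mean of both control arrays for the related ligands, receptors, inducers, proteases and Zfp36 named in the text, 1 row per gene and 1 column per array. Il1b, Il1a, Zfp36, Nfkbia and Adam17 are darkest in the early column, while Cxcl13, Cxcl14, Pf4 and Cxcr4 stay pale.

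The profiles most like those of the chemokines were ranked by the root mean square difference of mean-centred log2 values over the 5 arrays, among 675 or 676 named genes with a range of at least 1 on that scale. Nearest to Cxcl1 were C2cd4b (0.36), Hmox1 (0.45) and Rasl11b (0.61). Hmox1, the heme oxygenase, read 15565 (early), 7293 (intermediate) and 4583 (late), against 4745 (sham) and 1700 (untreated), with the sham array above the untreated one as for Cxcl1. Nearest to Cxcl2 were the AP-1 subunit Fosl1 (0.22), the cytokine Il6 (0.25) and tissue factor F3 (0.40). Fosl1 and Il6 were above the floor on the early array alone, at 1162 and 1004. Nearest to Cxcl6 were the platelet and endothelial selectin Selp (0.25), the AP-1 subunit Junb (0.28) and Mapre1 (0.29). Nearest to Cx3cl1, through AF030358_at, were Prss22, Cdc42bpb and the actin regulator Cap1, at 0.07 to 0.08. Prss22 and Cdc42bpb lay under the floor on the 4 arrays other than early, so their flat part is the floor itself, whereas Cap1 was above it on all 5. Nearest to Cxcl10 were Ctrc (0.13), the inhibitory Fc receptor Fcgr2b (0.16) and Wdr62 (0.18), and Fcgr2b read 925 (early), 963 (intermediate) and 1417 (late), against 367 (sham) and 564 (untreated). C2cd4b and Rasl11b lay under the floor on the untreated array, Selp and Ctrc on the sham array, and Wdr62 on both control arrays. With 5 arrays such likeness is loose.

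All 7 lung epithelial markers, the surfactant genes Sftpc and Sftpb among them, were above the floor on every array and none was called. They summed to 171250.5 (early), 215677.9 (intermediate) and 217012.1 (late), against 185315.8 (sham) and 173909.4 (untreated). Of the 3667 named genes above the floor, 2.54% (early), 0.873% (intermediate) and 0.6% (late) were called higher. Of 14 neutrophil markers 5 were measured and 3 were above the floor, S100a8, S100a9 and Padi4. All 3 were called higher on the early array, S100a9 and Padi4 on the intermediate array and Padi4 on the late array. Their summed scaled intensity was 5928 (early), 5480 (intermediate) and 3617 (late), against 2567 (sham) and 1977 (untreated), while Itgam and Mmp8 lay under the floor on all 5. Of 10 macrophage markers 4 were measured and 3 were above the floor (Lyz2, Cd14 and Fabp4) and Csf1r was not. Cd14 was called higher on the early array, by 1 of its probe sets, with no macrophage marker called on the later arrays. Fabp4 was below both controls on every exposed array without a call, at 723 (early), 519 (intermediate) and 545 (late), against 902 (sham) and 1840 (untreated). Lyz2 was below both controls on the early array and above both on the later arrays, also without a call. The summed intensity, mostly Lyz2, was 46956 (early), 66459 (intermediate) and 65599 (late), against 54549 (sham) and 50709 (untreated). The 4 measured endothelial markers summed to 3574 (early), 2434 (intermediate) and 2261 (late), against 2510 (sham) and 3169 (untreated), and the 6 T and NK cell markers to 2545 (early), 2416 (intermediate) and 3004 (late), against 2670 (sham) and 3105 (untreated), with no call in either list and Prf1 under the floor throughout. The 5′ to 3′ signal ratio of beta-actin, a measure of how complete the copied RNA was, was 43.0% on the early array, 9.07% and 19.6% on the later exposed arrays, and 14.7% (sham) and 24.4% (untreated) on the control arrays. The same ratio of GAPDH was 67.2% on the early array, 23.58% and 38.1% on the later exposed arrays, and 25.45% (sham) and 39.12% (untreated). Both ratios were thus highest on the early array. The part of these markers and of the ratios in the chemokine differences was not tested.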

How the data were processed

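Lung RNA was measured on 5 one-colour oligonucleotide arrays, 1 per group, grouped by the array titles. The values are the deposited linear intensity of 8799 probe sets; from the values, the authors had brought the arrays to one scale (trimmed means of 1001.38 to 1001.63 after leaving out 2% at each end). The sources used here do not name the software, and the depth of an array has no count, so the number of arrays limits the precision. Leaving out 59 control probe sets, the deposited intensity was scaled here to the mean of the array medians (factors 0.931 to 1.07), floored at the 40th percentile and taken to log2. Calls are at least 2-fold from both control arrays; no test was run across the groups. Of the probe sets 7006 had 1 gene symbol, 308 several and 1426 were not listed.

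The members and lists were chosen with earlier results of these data known. Named genes were the members, all other CXC ligands and receptors measured, up to 4 called genes per other list (with none called, the 2 of highest mean), and the 3 nearest profiles per member; Cd14, Padi4, S100a8, S100a9, the genes named as under the floor and the second Jak2 probe set were named after their values were seen. Promoters came from RefSeq (GRCr8, all 5 matched). A planned comparison of the proteins was not made. Alternatives were other scalings, floors at the 20th and 60th percentile, 1 probe set per gene and 3-fold; single controls, and the member counts under the scalings and floors, were added after seeing the data. Python 3.11.15, pandas 2.3.3, NumPy 2.4.6 and SciPy 1.17.1 were used.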

Additional observations from a re-analysis of the deposited data

Results flagged for a closer look

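The Cx3cl1 probe set AF030358_g_at stood above both controls on the early array (log2 differences of 1.94 from sham and 1.78 from untreated) and on the intermediate array (0.56 and 0.40), and below both on the late array (-0.10 and -0.25). It was picked out because the early and intermediate arrays moved one way and the late array the other. The intermediate and late differences were all under 2-fold, so the fold rule does not tell those arrays from the controls. With 1 array per group the difference between times was not tested. The other Cx3cl1 probe sets were not below both controls at late times: AF030358_at gave 0.14 and 0.02, and rc_AA800602_s_at gave 1.29 and 0.61.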

How the results depend on the processing

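A single control or a lower floor cannot end a call, so 3 of the 7 alternatives say nothing of how firm the 8 member calls are. Under the other 4 (3 scalings and the floor at the 60th percentile) 29 of 32 values were still called and 3 were not. The scalings had little room to end a call. Leaving out the median scaling shifts a difference by 0.06 to 0.20 on the log2 scale. The lowest called difference, Cxcl10 late against untreated at 1.17, shifts by 0.085. That of rc_AA800602_s_at intermediate against untreated, at 1.213, shifts by 0.138. With scaling to the 75th percentile these differences were 1.169 and 1.156, and after quantile normalization 1.183 and 1.156. The values still called under the scalings therefore say little of how firm the calls are. The 3 losses, all with the floor at the 60th percentile, were Cxcl6 early (0.94), rc_AA800602_s_at intermediate (0.93) and Cxcl10 late (0.16), since a higher floor hides low control values; the member counts were then 5 early, 0 intermediate and 0 late. At 3-fold they were 4, 0 and 0. No share over all probe sets was computed at 3-fold, at the 60th percentile floor or with a single control. Nothing is read from the member counts under these settings. Of 91 values of differences not called, 3 became calls, all with a single control, which asks less by construction: Cxcl1 intermediate (2.96) and late (1.87) against untreated, giving 2 calls each, and rc_AA800602_s_at late (1.29) against sham, giving 2. The counts over all probe sets depend more on the choices. Higher and lower calls in time order were 330 and 137, 205 and 127, and 175 and 182 with the floor at the 20th percentile; 124 and 7, 38 and 1, and 19 and 28 at the 60th; 93 and 11, 32 and 8, and 22 and 38 with 1 probe set per gene; 315 and 117, 147 and 108, and 123 and 145 against sham alone; and 293 and 135, 136 and 77, and 105 and 163 against untreated alone. With values as deposited the intermediate array had 30 higher and 40 lower and the late array 91 lower; scaled to the 75th percentile the intermediate array had 37 and 35, and after quantile normalization 37 and 30. Sham and untreated were 2-fold apart for 222 probe sets, and for 1047, 52 and 116 with the 20th percentile, the 60th percentile and 1 probe set per gene. The cause of the shifts between scalings was not tested. No paired analysis was possible because each group has 1 array.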
